A study of Mus musculus with 8 samples.

Results

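The triggering receptors expressed on myeloid cells (TREMs) and their adaptor Tyrobp were examined in macrophages of mouse pancreas tumours. The members were every probe with a non-control spot whose gene name in the scanner files is Trem1, Trem2, Trem3, Treml1, Treml2, Treml4 or Tyrobp, which gave 7 genes of 36994 gene names. These 7 genes had 11 probes, with 2 probes each for Trem1, Treml1, Treml2 and Treml4 and 1 probe each for Trem2, Trem3 and Tyrobp.

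The study set 4 MHCII-high samples against 4 MHCII-low samples, the groups being named for the amount of MHC class II, which presents peptides to CD4 T cells. All 8 samples were macrophages sorted by flow cytometry from implanted pancreas tumours of female FvBn mice aged 8 to 10 weeks, with no treatment named and no genotype given in the labels. The series' design text speaks of wild-type, KPC and FLT3-CRE/LSL-YFP mice and does not say which of them gave these samples, and the sources used here give no gate other than MHCII. The numbers 20435, 20436, 20439 and 20442 in the labels each occur once per group. Whether the 4 samples of a group are separate animals is not stated in the labels. A p-value therefore reflects the spread among these samples and no more, and that spread may be technical.

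TREM receptors are single-pass membrane proteins with an immunoglobulin-like domain, and most of the activating ones carry no signalling motif of their own. They pair in the membrane with Tyrobp, also called DAP12, whose cytoplasmic immunoreceptor tyrosine-based activation motif (ITAM) recruits the kinase Syk once it is phosphorylated. In tissue and tumour macrophages Trem2 is known as a receptor for lipids and lipoproteins, and Trem1 is known as an amplifier of inflammatory signals in neutrophils and monocytes.

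A 60-base probe reports only the stretch of transcript it matches, so 2 probe sequences that bear on how the signals can be read are shown first. The Tyrobp probe is shown because every receptor is later set against it, and its capitals mark the 12 bases, positions 39 to 50, that code for the first tyrosine site of the ITAM. Its ends lie 1728 bases apart in the genome, at chr7:31200651-31202378 of build mm9, so the 60 bases are spread over more than 1 exon. The Trem1 window covers positions 12 to 41 of the first Trem1 probe and is shown because this probe carries a run of TTG repeats, 38 bases long at positions 17 to 54, whose part inside the window is in capitals.

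Tyrobp probe: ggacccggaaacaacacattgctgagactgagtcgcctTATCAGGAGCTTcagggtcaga
Trem1 probe 1, positions 12 to 41: cctgtGTTGTTGTTGTTGTTGTTGTTGTTG

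The 10 receptor probes lie on chromosome 17 between 48385230 and 48506424 of mm9, a span of 121.195 kb that holds all 6 receptor genes, and Tyrobp lies on chromosome 7. Exon and untranslated-region annotation of that build was not used here.

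The arrays carried 56605 probes, of which 38756 to 42120 per array were well above background, and 41184 that reached this on at least 4 of the 8 arrays were tested. Values below are log2 of the processed signal minus the array's 75th percentile, and a log2 fold change is the MHCII-high mean minus the MHCII-low mean. By limma with Benjamini-Hochberg adjustment over all 41184 probes, 2154 probes (5.23%) passed an adjusted p of 0.05, 1154 of them (2.8%) with the higher mean in MHCII-high and 1000 (2.43%) with the higher mean in MHCII-low. The number of probes called was 892 without MHCII-high 20439, 1182 without MHCII-high 20442, 1154 without MHCII-low 20435, 1235 without MHCII-low 20436, 1199 without MHCII-low 20439 and 1286 without MHCII-low 20442. The slide placed 1 MHCII-high and 3 MHCII-low arrays in its first row and 3 MHCII-high and 1 MHCII-low array in its second row, and blocking on that row left 716 calls. In the macrophage list 1 of 8 markers fell in MHCII-high (Adgre1, log2 fold change -1.69) and all 8 were well above background on every array, with summed signals, in multiples of the array's 75th percentile, of 154 to 216 in MHCII-high and 204 to 268 in MHCII-low. In the dendritic cell list 7 of 8 markers were higher in MHCII-high, with summed signals of 9.03 to 18.3 against 1.63 to 2.10. In the epithelial list 1 of 5 markers (Cdh1) was higher in MHCII-high, and the summed signals overlapped.

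All 11 member probes were well above background on all 8 arrays. None of the 11 passed the adjusted threshold in limma, against 5.23% of all probes, while 3 probes of 2 genes, Trem2 and Treml2, had an unadjusted p under 0.05, against 20.4% of all probes. The groups were without overlap on 1 member probe of 11, against 14.8% of all probes (7.69% with MHCII-high above and 7.12% with MHCII-low above). By value, 4 member probes were higher and 7 were lower in MHCII-high. The median log2 fold change was -0.13 over the member probes and 0.0066 over all tested probes, and the median size of the change regardless of sign was 0.39 against 0.28. In bulk samples, fewer cells of a type and less RNA per cell cannot be told apart.

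**Figure D1:**
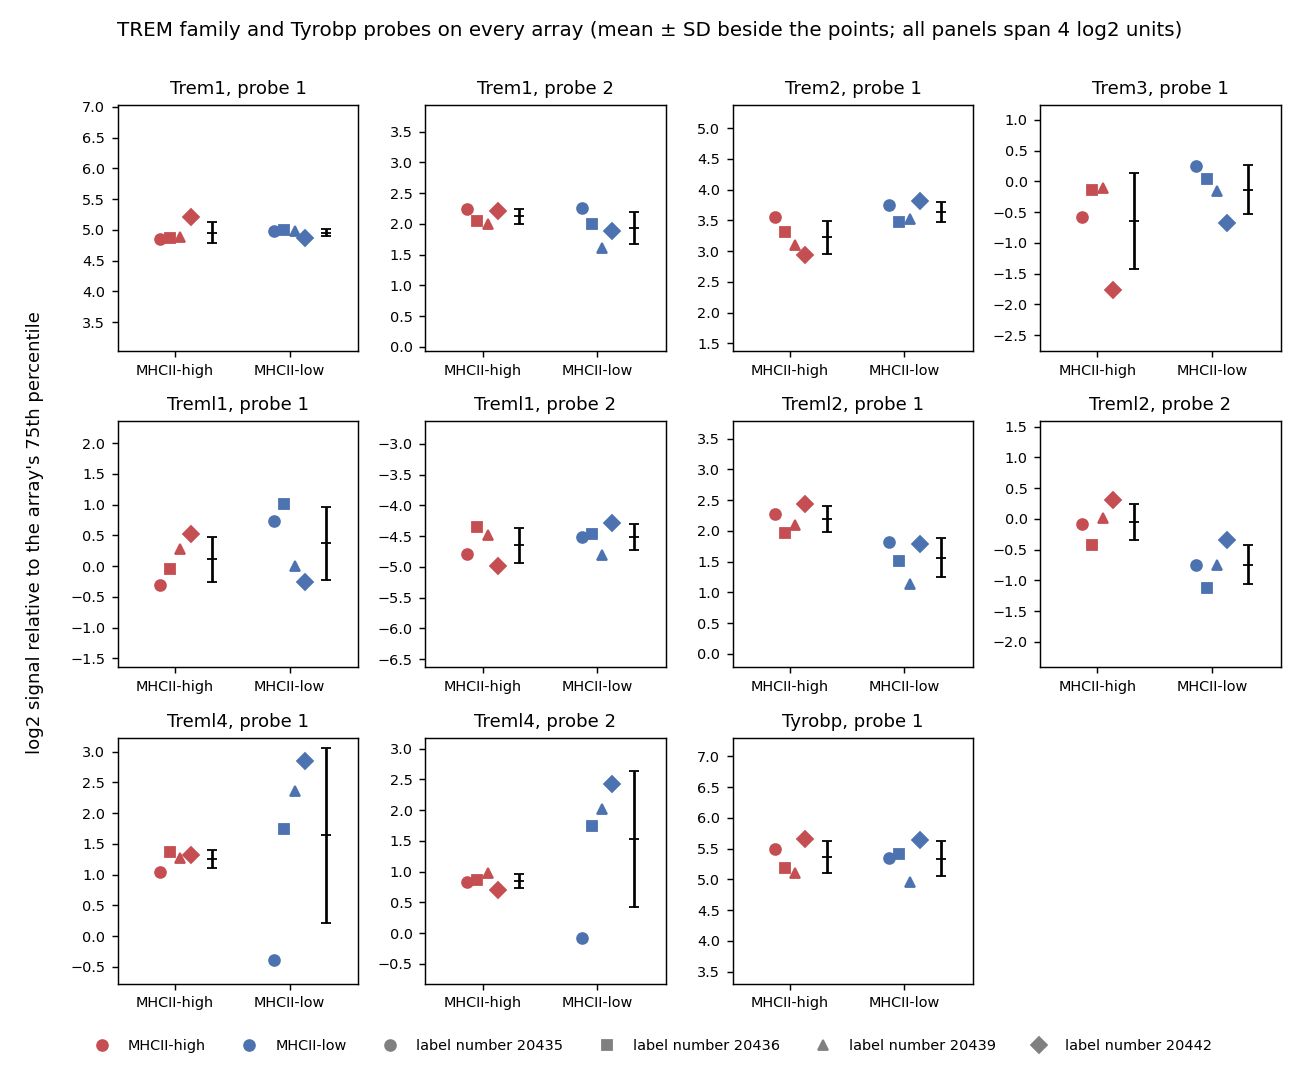
Scaled log2 signal (processed signal minus the array's 75th percentile, every panel spanning the same number of log2 units) of the 11 member probes in the 4 MHCII-high and 4 MHCII-low arrays. Each array is 1 point, and the group mean with a bar of ± SD stands beside the points. The groups separate fully only on the first Treml2 probe, and the MHCII-low array 20435 stands below the other MHCII-low arrays on both Treml4 probes.

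Tyrobp, the shared adaptor, had nearly the same signal in both groups. Its values in the order of the label numbers 20435, 20436, 20439 and 20442 were 5.50, 5.18, 5.10 and 5.66 in MHCII-high and 5.34, 5.41, 4.95 and 5.64 in MHCII-low. Array 20439 was the lowest and array 20442 the highest in each group, and the groups overlapped throughout. The means were 5.36 ± 0.26 (SD, n = 4) in MHCII-high and 5.34 ± 0.29 (SD, n = 4) in MHCII-low. The log2 fold change was 0.03 (SE 0.20, 95% interval -0.44 to 0.49, limma adjusted p = 0.960), or 1.02-fold with an interval of 0.739 to 1.40. Its sign turned under normexp background correction, array median scaling and the slide row block, so no direction is given for Tyrobp.

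Trem2, the lipid-sensing receptor of macrophages, had a higher mean in MHCII-low and missed the threshold. Its values were 3.55, 3.31, 3.10 and 2.94 in MHCII-high and 3.74, 3.48, 3.53 and 3.82 in MHCII-low. The groups overlapped through MHCII-high 20435 alone, which lay above MHCII-low 20436 and 20439, and within each label number the MHCII-low array was the higher. The means were 3.22 ± 0.26 and 3.64 ± 0.16 (SD, n = 4 each), a log2 fold change of -0.42 (SE 0.18, 95% interval -0.82 to -0.02). The MHCII-low level was 1.34-fold higher (interval 1.01 to 1.77), and the limma p was 0.0434 before and 0.227 after adjustment over all probes. Within slide rows the differences were -0.28 in the first and -0.62 in the second, and with the row as a block the log2 fold change was -0.45 (limma adjusted p = 0.363). Among the 8 macrophage markers the median log2 fold change was -0.34, and the part this has in the Trem2 value was not tested. The summed signals of these markers overlapped between the groups, at 154 to 216 in MHCII-high and 204 to 268 in MHCII-low. The highest MHCII-high sum was at array 20442, where Itgam, the marker with the highest signal, was at 6.99. By gene, 6 of the 8 had lower values in MHCII-high, while Fcgr1 (0.03) and Itgam (0.01, and -0.79 on its other probe) did not. The groups were without overlap for Adgre1 (-1.69), Cd68 (-0.59) and Mertk (-0.49), of which Adgre1 alone passed the threshold.

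Trem1, the amplifier of inflammatory signals, has 2 probes that lie 619 bases apart. The first, at chr17:48385849-48385908, gave 4.86, 4.86, 4.89 and 5.21 in MHCII-high and 4.98, 4.99, 4.98 and 4.87 in MHCII-low. Apart from array 20442, which was the highest MHCII-high and the lowest MHCII-low array, its values stayed close together. The means were 4.95 ± 0.17 and 4.96 ± 0.06 (SD, n = 4 each), a log2 fold change of -0.0030 (SE 0.14, 95% interval -0.32 to 0.32, limma adjusted p = 0.993). The sign of this value turned under normexp, quantile normalization and the deposited table. The second probe, at chr17:48385230-48385289, gave 2.25, 2.05, 2.0 and 2.20 in MHCII-high and 2.25, 1.99, 1.61 and 1.88 in MHCII-low. MHCII-high 20435 and MHCII-low 20435 had equal values to 2 decimals, and in the other 3 label numbers the MHCII-high array was the higher. Its log2 fold change was 0.19 (SE 0.17, 95% interval -0.20 to 0.58, limma adjusted p = 0.579), or 1.14-fold, and it was 0.30 without MHCII-low 20435 and 0.085 without MHCII-low 20439.

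The TTG run shown above sets the first Trem1 probe apart from most of the array. Runs of at least 8 TTG units, read in any phase on the probe strand, were held by 4 of 56605 probes. These were the first Trem1 probe, a probe for Fubp3 with a run of 30 bases, a probe for Gm4146 with 32 bases and a probe without a gene symbol with 25 bases. All 4 were well above background on all 8 arrays, as were 62.3% of all probes. None of the 4 was called, and their log2 fold changes lay between -0.04 and 0.04. At MHCII-high 20442, where the Trem1 probe was 0.25 above its own mean over the 8 arrays, the Fubp3 probe was 0.30, the unnamed probe 0.16 and the Gm4146 probe 0.04 above theirs. At MHCII-low 20442 all 4 lay below their own means, with deviations of -0.09 for the Trem1 probe and -0.11 to -0.44 for the others. The part of the repeat in the Trem1 signal was not tested. Neutrophils are a known source of Trem1, and none of 11 neutrophil markers passed the threshold in limma, with 1 at an unadjusted p under 0.05 and summed signals of 30.1 to 39.8 in MHCII-high and 31.4 to 40.0 in MHCII-low. Of 5 monocyte markers 1, Plac8, was higher in MHCII-high, while the summed signal of the list was 16.7 to 26.5 in MHCII-high and 33.1 to 38.6 in MHCII-low. The part of these cells in the Trem1 values was not tested.

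Trem3, a mouse receptor that pairs with Tyrobp, was spread widely among the arrays. Its values were -0.58, -0.13, -0.10 and -1.76 in MHCII-high and 0.25, 0.05, -0.16 and -0.68 in MHCII-low. Array 20442 was the lowest of each group, and MHCII-high 20442 lay 1.49 log2 units below the mean of the other MHCII-high arrays, or 2.80-fold. The means were -0.65 ± 0.78 and -0.14 ± 0.40 (SD, n = 4 each), a log2 fold change of -0.51 (SE 0.39, 95% interval -1.39 to 0.38, limma adjusted p = 0.512). Without MHCII-high 20442 the log2 fold change was -0.14. Blocking on the slide row gave a value of -0.16 (limma adjusted p = 0.898).

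Treml4, which is known to bind dead cells, varied little among the MHCII-high arrays and widely among the MHCII-low arrays. The first probe, at chr17:48414646-48414705, gave 1.04, 1.38, 1.27 and 1.32 in MHCII-high and -0.38, 1.75, 2.37 and 2.84 in MHCII-low. The second probe, 10359 bases away at chr17:48404287-48404346, gave 0.82, 0.86, 0.98 and 0.71 in MHCII-high and -0.07, 1.75, 2.03 and 2.43 in MHCII-low. On both probes MHCII-low 20435 was below every MHCII-high array and the other 3 MHCII-low arrays were above every MHCII-high array. MHCII-low 20435 lay 2.70 log2 units (6.50-fold) below the mean of the other MHCII-low arrays on the first probe and 2.14 units (4.41-fold) below it on the second.

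The Treml4 group means did not differ beyond this spread. The first probe had means of 1.25 ± 0.15 and 1.64 ± 1.42 (SD, n = 4 each) and a log2 fold change of -0.39 (SE 0.61, 95% interval -1.80 to 1.01, limma adjusted p = 0.770). The second had means of 0.84 ± 0.11 and 1.53 ± 1.11 and a log2 fold change of -0.69 (SE 0.48, 95% interval -1.80 to 0.41, limma adjusted p = 0.473). Single arrays decide these values. Without MHCII-low 20435 the log2 fold changes were -1.07 (limma adjusted p = 0.090) and -1.23 (limma adjusted p = 0.029), so that the second probe then passed the threshold. Without MHCII-low 20442 the first probe was at 0.0078 and the second at -0.39, and without MHCII-low 20439 the first was at -0.15. Within slide rows the first probe differed by 0.13 and -1.63, and blocking on the row gave -0.75 for the first probe and -0.99 for the second (limma adjusted p = 0.677 and 0.443). MHCII-low 20435 was also the lowest MHCII-low array in the summed signal of 5 of the 8 marker lists. These were T and NK cells (1.66 against 2.73 to 3.25), neutrophils (31.4 against 38.7 to 40.0), dendritic cells (1.63 against 1.96 to 2.10), B cells (7.74 against 8.03 to 10.5) and epithelial cells (4.10 against 5.08 to 9.55). The part these cells may have in the Treml4 values was not tested. The second probe is shown because it is the member probe that passed the threshold when 1 array was left out.

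Treml4 probe 2: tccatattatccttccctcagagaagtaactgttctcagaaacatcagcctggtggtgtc

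**Figure D2:**
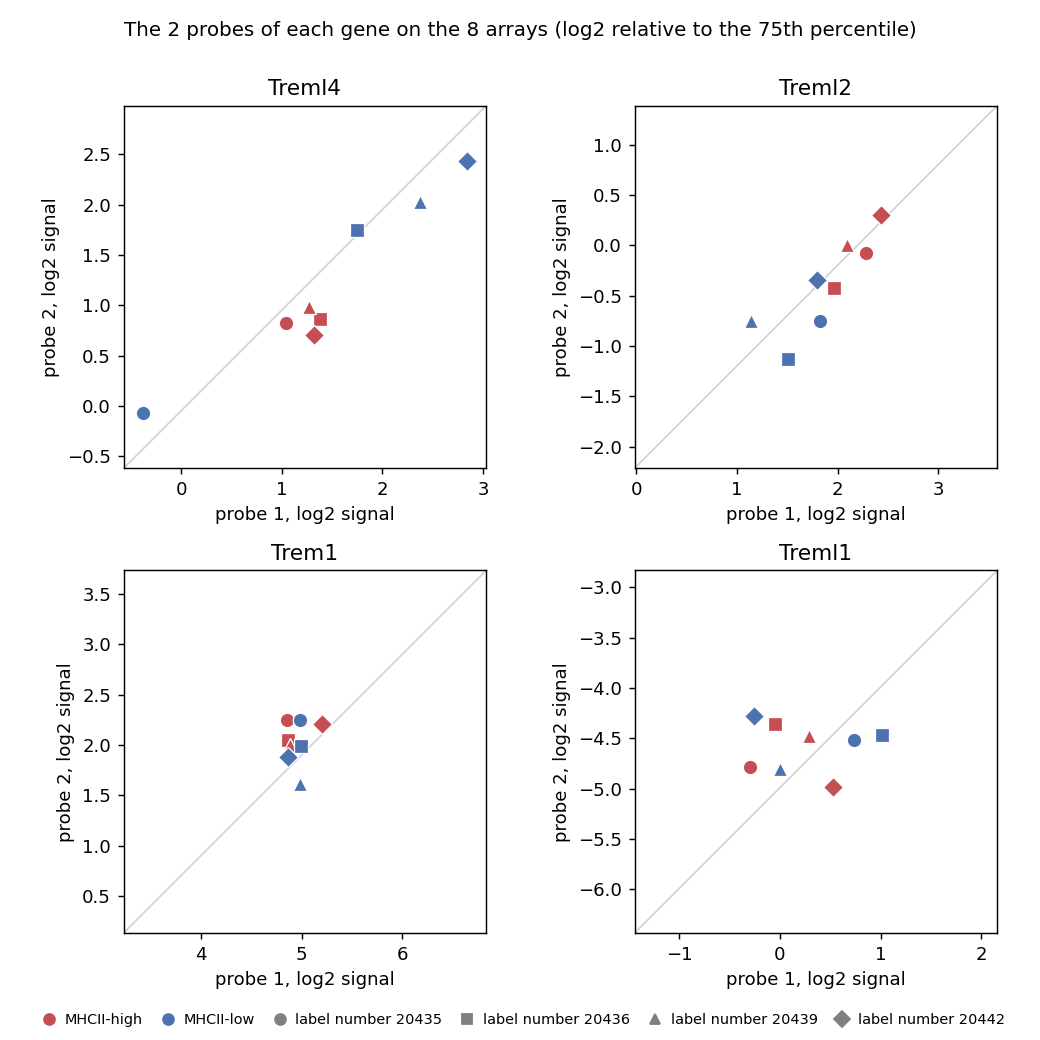
Scaled log2 signal of the first probe (x axis) against the second probe (y axis) of the 4 members with 2 probes, 1 point per array and colour by group. The grey line runs through the middle of each panel with the slope of an equal change in both probes. The difference between the 2 probes varied among arrays by 0.74 for Treml2, 0.76 for Trem1, 0.93 for Treml4 and 1.48 for Treml1. The first probe itself ranged over 1.30 for Treml2, 0.35 for Trem1, 3.22 for Treml4 and 1.31 for Treml1.

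Treml2, found on B cells, neutrophils and macrophages, had the highest log2 fold changes of the members on both of its probes. The first, at chr17:48442024-48442083, gave 2.28, 1.96, 2.10 and 2.43 in MHCII-high and 1.82, 1.5, 1.13 and 1.79 in MHCII-low. Every MHCII-high array was above every MHCII-low array. The means were 2.19 ± 0.21 and 1.56 ± 0.32 (SD, n = 4 each), a log2 fold change of 0.63 (SE 0.20, 95% interval 0.17 to 1.08) or 1.55-fold (interval 1.13 to 2.12). The limma p was 0.0128 before and 0.119 after adjustment over all probes.

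The second Treml2 probe, 8391 bases away at chr17:48450415-48450474, gave -0.08, -0.42, 0.01 and 0.30 in MHCII-high and -0.76, -1.13, -0.75 and -0.35 in MHCII-low. Only MHCII-high 20436 and MHCII-low 20442 crossed, and within each label number the MHCII-high array was the higher. Its log2 fold change was 0.70 (SE 0.22, 95% interval 0.20 to 1.19), or 1.62-fold (interval 1.15 to 2.29), with a limma p of 0.0119 before and 0.115 after adjustment. Within slide rows the 2 probes gave differences of 0.42 to 0.48, and taking the row as a block gave log2 fold changes of 0.47 (limma adjusted p = 0.341) and 0.44 (limma adjusted p = 0.313). Both probes thus gave a value of one sign and similar size, and neither passed the threshold. The first probe is shown because it alone among the members separated the groups.

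Treml2 probe 1: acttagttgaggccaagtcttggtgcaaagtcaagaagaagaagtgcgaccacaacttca

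Markers of B cells, which also carry Treml2, had summed signals of 9.77 to 12.2 in MHCII-high and 7.74 to 10.5 in MHCII-low. The ranges of the groups overlapped, and the part of B cells in the Treml2 values was not tested.

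Treml1, a platelet receptor stored in alpha granules that carries an inhibitory tyrosine motif and binds fibrinogen, gave no shared pattern on its 2 probes, which start 126 bases apart. The first, at chr17:48506365-48506424, gave -0.30, -0.05, 0.29 and 0.53 in MHCII-high and 0.73, 1.01, 0.00 and -0.25 in MHCII-low. The second, at chr17:48506239-48506298, gave -4.79, -4.35, -4.48 and -4.98 in MHCII-high and -4.52, -4.47, -4.80 and -4.28 in MHCII-low. MHCII-high 20442 was the highest MHCII-high array on the first probe and the lowest on the second, and MHCII-low 20442 was the lowest MHCII-low array on the first and the highest on the second. The log2 fold changes were -0.26 (SE 0.32, 95% interval -0.98 to 0.47, limma adjusted p = 0.703) and -0.13 (SE 0.19, 95% interval -0.57 to 0.31, limma adjusted p = 0.748), the second turning to 0.05 under normexp. With 1 array left out the first probe ran from -0.47 (without MHCII-low 20442) to -0.045 (without MHCII-low 20436), and the second from -0.23 (without MHCII-high 20436) to -0.02 (without MHCII-high 20442). Blocking on the slide row gave -0.10 for the first probe. Within slide rows the first probe differed by -0.63 and 0.43 and the second by 0.24 and -0.47, so the signs were opposite between rows and between probes. None of 8 platelet and megakaryocyte markers passed the threshold in limma, 2 had an unadjusted p under 0.05, and their summed signals were 2.67 to 3.85 in MHCII-high and 2.87 to 3.94 in MHCII-low.

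**Figure D3:**
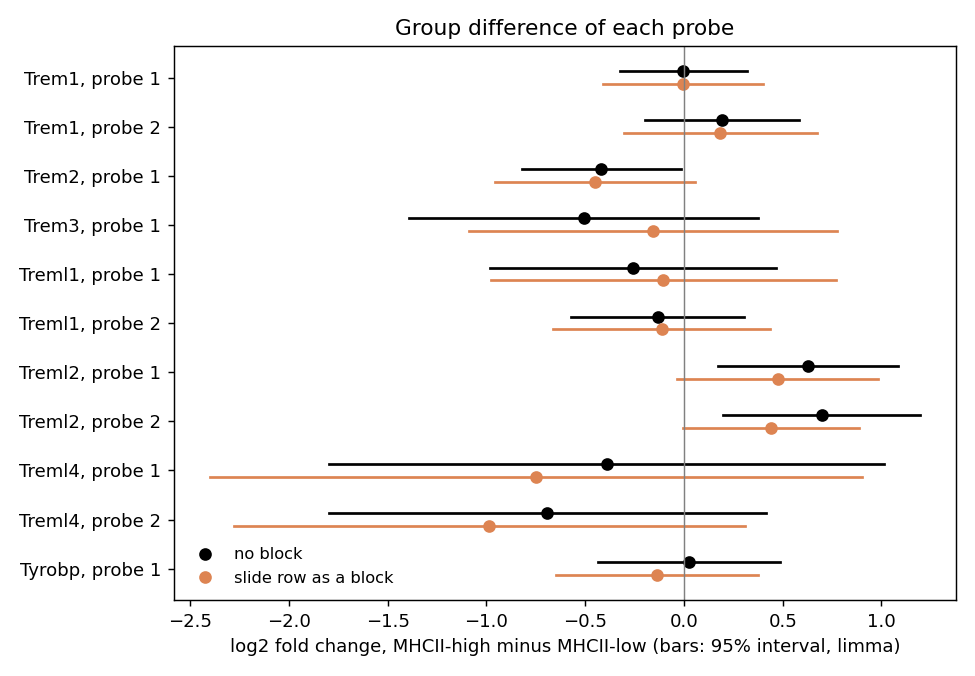
Log2 fold change of MHCII-high over MHCII-low for the 11 member probes, with 95% intervals from limma, unblocked in black and blocked by slide row in orange. Only the 3 probes of Trem2 and Treml2 have unblocked intervals that leave out 0, and no probe passed the adjusted threshold in either fit.

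Because Tyrobp is the adaptor of activating TREM receptors, each receptor's log2 signal minus that of Tyrobp was compared between the groups within arrays. Whether each of the 6 receptors pairs with Tyrobp was not examined, and Treml1 carries a motif of its own. The highest-signal probe of each receptor was used, with a two-sided exact permutation test over all 70 assignments of the arrays. The smallest p this design allows is 0.0286, and adjustment over 6 receptors brings a lone p of that size to 0.171. The adjusted test could thus pass only if most of the 6 receptors reached that smallest p. With arrays exchanged only within a label number, the smallest exact p is 0.125. In that test the exact p was 0.125 for Treml2 minus Tyrobp and 0.25 for Trem2 minus Tyrobp. Only changes between groups are read from these differences, because signals of different probes are not on one scale. Treml2 minus Tyrobp changed by 0.60 from -3.77 ± 0.17 in MHCII-low to -3.17 ± 0.11 in MHCII-high (SD, n = 4 each, exact p = 0.0286, adjusted 0.171), without overlap. The second Treml2 probe changed by 0.67 against Tyrobp (adjusted exact p = 0.114 over the 4 second probes). Trem2 minus Tyrobp changed by -0.44 (exact p = 0.0571, adjusted 0.171). The other receptors changed against Tyrobp by -0.03 (Trem1, adjusted exact p = 0.914), -0.53 (Trem3, 0.729), -0.28 (Treml1, 0.729) and -0.42 (Treml4, 0.789). Single arrays moved several of these differences. Trem2 minus Tyrobp was -0.25 without MHCII-high 20442. Trem3 minus Tyrobp was -0.06 without MHCII-high 20442 and -0.82 without MHCII-low 20442. Treml1 minus Tyrobp ran from -0.60 (without MHCII-low 20442) to -0.10 (without MHCII-low 20436). Treml4 minus Tyrobp was -1.09 without MHCII-low 20435, -0.05 without MHCII-low 20439 and -0.12 without MHCII-low 20442.

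Other genes of the pathway were read from 4 lists, with the highest-signal probe per gene, for which 4.93% of all 28000 genes tested were called, 2.69% upward in MHCII-high and 2.24% downward. Of 75 listed genes 72 were tested and 9 were called (12.5%), 4 upward and 5 downward in MHCII-high, and with a median log2 fold change of -0.03. Apoe stands in 2 of the lists. An unadjusted p under 0.05 was reached by 19.3% of all genes tested. The lists were chosen with earlier results of these data known, so their counts are a description.

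Of the receptors outside the TREM family that pair with Tyrobp, 12 of 15 were tested, 1 rose and 1 fell in MHCII-high, and the median log2 fold change was 0.02. In limma 4 of the 12 had an unadjusted p under 0.05. Klrk1, the activating receptor NKG2D, gave -0.87, -0.65, -0.82 and -0.67 in MHCII-high and -5.14, -3.20, -3.41 and -3.55 in MHCII-low. Its groups lay far apart, with a log2 fold change of 3.07 or 8.41-fold (limma adjusted p = 0.006) on this probe and 5.58 on the other. Its log2 fold change was 1.97 under normexp and it remained called when the slide row was blocked (adjusted p = 0.034). Cd300lb, an activating receptor of myeloid cells, fell by 0.79 on the log2 scale (limma adjusted p = 0.032) and by 0.85 on a second probe (adjusted p = 0.031), while the remaining probe had a value of -0.84 (adjusted p = 0.084). This call was lost when the slide row was blocked (adjusted p = 0.081) and when any array other than MHCII-low 20436 was left out. The genes of this list with the highest signal that were not called were Siglech and Pilrb2. Siglech was at 0.06 on its highest-signal probe, which turned to -0.02 under array median scaling, and at 0.43 and 1.34 on its other 2 probes (limma adjusted p = 0.532 and 0.319), so that its probes give different sizes. Pilrb2 was at 0.22. Dendritic cell markers moved with these groups as given above, and their part in the Klrk1 value was not tested.

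The list of signalling genes downstream of the Tyrobp ITAM also holds Hcst, which is itself an adaptor (DAP10). All 30 genes of this list were tested, 2 rose and 1 fell in MHCII-high, and the median log2 fold change was 0.01. In limma 6 of the 30 had an unadjusted p under 0.05. Malt1, the protease of the Card9-Bcl10 complex, rose by 1.84 or 3.59-fold (limma adjusted p = 0.012), with values of 0.86 to 1.94 on its other 3 probes. Src, a kinase family member that can phosphorylate ITAMs, rose by 0.85 (limma adjusted p = 0.032) and by 1.18 on its other probe. Lcp2, the SLP-76 scaffold, fell by 0.75 (limma adjusted p = 0.038) and by 0.87 on a second probe, while the remaining probe had a value of -0.23 (adjusted p = 0.604). The Malt1 call remained when the slide row was blocked (adjusted p = 0.041), while Src (0.123) and Lcp2 (0.106) lost theirs. Src also lost it when any array other than MHCII-low 20439 was left out, and Lcp2 when any array other than MHCII-high 20435 was left out, and array median scaling ended both calls (adjusted p = 0.070 and 0.057). Syk, the kinase that Tyrobp recruits, was at 0.05 on its highest-signal probe and at 1.12 (limma adjusted p = 0.133), -0.14 and -0.0027 on its other 3 probes, so that its probes disagree. The highest-signal genes not called were Lyn, at 0.06 with its sign turning under normexp, median scaling and the slide row block and at -0.32 on its other probe, and Pik3cd, at 0.28 with 0.24 to 0.42 on its other 3 probes.

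Of the TREM ligands and the genes that cleave the receptors all 12 were tested and none passed the threshold in limma, with 3 at an unadjusted p under 0.05. The values were negative for 9 of 12, with a median of -0.31. Adam10, a sheddase of Trem2, had a log2 fold change of -0.72 (limma adjusted p = 0.086) and -0.89 on its other probe (adjusted p = 0.280). Apoe, a lipoprotein ligand of Trem2, was at 0.0047 with its sign turning under normexp, median scaling and the slide row block, and was at -0.18 on its other probe. Psenen, a subunit of gamma-secretase, was at -0.30, and at -0.24 and -0.08 on its other probes.

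Of the genes known to accompany Trem2 in lipid-associated macrophages all 19 were tested, 1 rose and 3 fell in MHCII-high, and the median log2 fold change was -0.11. In limma 8 of the 19 had an unadjusted p under 0.05, and the values were negative for 13 of 19. Itgax, the integrin CD11c that macrophages share with dendritic cells, rose by 2.13 or 4.37-fold (limma adjusted p = 0.005), by 1.74 and 2.43 on its other probes, and remained called when the slide row was blocked (adjusted p = 0.029). Gpnmb, a glycoprotein of lipid-laden macrophages, fell by 1.43 (limma adjusted p = 0.013). Igf1, a growth factor, fell by 1.29 (adjusted p = 0.023) and by 1.07 on a second probe, while the remaining probe had a value of -2.76 (adjusted p = 0.085). Ctsd, a lysosomal protease, fell by 0.94 (adjusted p = 0.028). Blocking on the slide row gave an adjusted p of 0.055 for Gpnmb, 0.060 for Igf1 and 0.110 for Ctsd. The Igf1 call was lost without MHCII-high 20435, 20439 or 20442 or MHCII-low 20439, and the Ctsd call when any array other than MHCII-high 20435 or 20436 was left out. Ctsb, another lysosomal protease, was at -0.25. Ctsl, of the same list, was at -0.69 (limma adjusted p = 0.093) and at -1.15 on its other probe (adjusted p = 0.011).

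**Figure D4:**
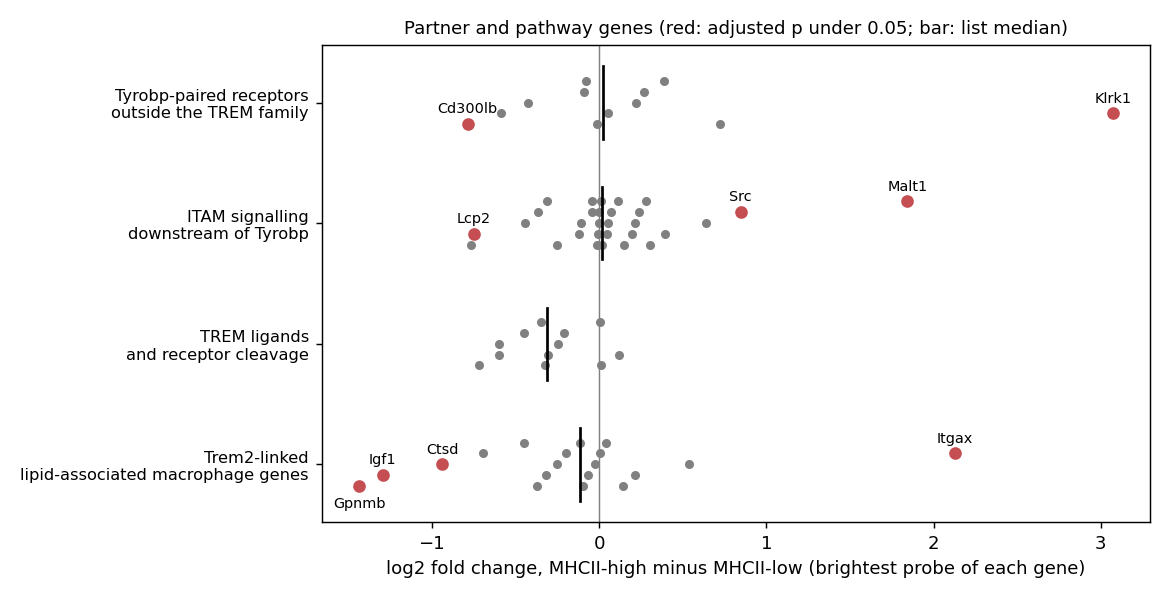
Log2 fold change of MHCII-high over MHCII-low for each tested gene of the 4 pathway lists, highest-signal probe per gene, with genes past a limma adjusted p of 0.05 in red and the list median as a bar. The 9 called genes lie on both sides of 0, and the medians run from -0.31 to 0.02.

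The receptor genes were also read with their neighbours. Within 200 kb of the receptor span 12 of 16 probes were tested and none passed the threshold in limma, with 2 at an unadjusted p under 0.05. Inside the span, the 2 probes of B430306N03Rik gave values of 0.73 and -0.48. The nearest neighbours outside it were A530064D06Rik, at -0.24, and Nfya, a subunit of the NF-Y transcription factor, whose probes gave 0.55, -0.72 and -0.00. Within 200 kb of the Tyrobp probe 49 of 51 probes were tested, 7 had an unadjusted p under 0.05 and 1, for the receptor Igflr1, was called (log2 fold change 1.82, limma adjusted p = 0.003). Hcst, the adaptor DAP10, lies 410 bases from the Tyrobp probe, and its 4 probes had log2 fold changes of -0.43 to -0.34 with limma adjusted p of 0.238 to 0.396.

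The genes whose log2 signal followed each member most closely over the 8 arrays are given by Pearson correlation, as a description without a test. The arrays share a slide and its rows, and the values are the highest of 19600 genes searched over 8 points. Closest to Treml2 were Acsl5 (0.992), Nt5c (0.979) and Ankrd65 (0.976). Closest to Trem2 were Nfkbia (0.992), Rnasek (0.990) and Aagab (0.985). Treml4 was followed most closely by Abcg3 (0.964), Zfp59 (0.953) and 4930532I03Rik (0.948), and Tyrobp by ND5 (0.972), Tmem62 (0.969) and Foxq1 (0.969). The highest value was 0.972 for the first Trem1 probe (Ccdc85a), 0.990 for Trem3 (4932438A13Rik) and 0.976 for Treml1 (Taar7b).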

How the data were processed

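Per the labels' protocols, total RNA of 8 samples was amplified (Sigma WTA2) and given a chemical Cy5 label (Kreatech ULS), with 1 array per sample. Per the file headers, the deposited scanner files come from Agilent Feature Extraction 11.5.1.1 and give each spot's background-subtracted intensity in 1 colour. The deposited series table holds log2 values that match quantile-normalized processed signals (r at least 0.999998), and it was used only as an alternative.

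Control spots and outlier-flagged spots were left out, spots of a probe were averaged, and log2 processed signal minus each array's 75th percentile was fitted per probe in limma 3.58.1 (R 4.3.3), without covariates. A probe was kept if well above background on 4 or more of the 8 arrays, p-values were adjusted over all of them by Benjamini-Hochberg, and the fit was tested on simulated data. No spot was saturated, and 8 arrays limit the precision. The 8 arrays shared 1 slide and 1 scan time.

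The members and lists were chosen with earlier results of these data known. All member probes are named. In a pathway list up to 4 called genes with the largest changes and up to 2 uncalled genes with the highest signal are named. In a locus the called genes and the nearest neighbours are named, and for likeness the 3 most correlated genes. Syk, Adam10, Hcst, Ctsl, B430306N03Rik, the repeat probes and the macrophage markers Cd68, Mertk, Fcgr1 and Itgam were named after their values were seen. Alternatives were normexp with an offset of 50, quantile normalization, median scaling, the deposited table, other filters, 1 probe per gene, the label number or slide row as a block, and each array left out. Names were updated through RefSeq by identifier or symbol, and 12756 of 56605 probes kept the name in the files.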

Additional observations from a re-analysis of the deposited data

Results flagged for a closer look

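Of 22 groups of 4 arrays (11 member probes in each group), 2 held a value whose gap to its nearest neighbour was above Dixon's 95% critical value as a share of the group's range, where chance gives about 1 in 20. Both were on the first Trem1 probe, which carries the TTG run, and both came from arrays of label number 20442. MHCII-high 20442 was above the rest of its group at 5.21 and MHCII-low 20442 was below the rest of its group at 4.87. The second Trem1 probe had no such value in either group.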

How the results depend on the processing

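No member probe passed the threshold under any alternative, apart from the second Treml4 probe without MHCII-low 20435. The count of called probes was 2154, against 1384 with the brightest probe per gene, 1236 with the replicate block by label number, 716 when blocked by slide row, and 892 to 1813 with 1 array left out. Same-numbered arrays deviated together with r of 0.0813 to 0.199, and every array correlated best with its own number, a hint from the data and not the design. That block ended the calls of Cd300lb, Src, Lcp2, Gpnmb, Ctsd and Igf1 (limma adjusted p = 0.058 to 0.113). Log2 fold changes near 0 turned sign. The first Trem1 probe went to 0.016 (normexp), 0.054 (quantile) and 0.053 (deposited table), and Tyrobp to -0.0061 (normexp), -0.052 (median scaling) and -0.14 (slide row). Trem1 minus Tyrobp went to 0.022 (normexp) and 0.17 (other probe). The second Treml1 probe went to 0.051 (normexp) and Siglech to -0.022 (median scaling). Under normexp, median scaling and slide row, Lyn went to -0.070, -0.022 and -0.070 and Apoe to -0.030, -0.073 and -0.16. With 1 array left out the ranges were -0.087 to 0.028 for the first Trem1 probe, -0.10 to 0.13 for Tyrobp, -1.07 to 0.0078 for the first Treml4 probe, -0.16 to 0.11 for Trem1 minus Tyrobp, -0.020 to 0.14 for Lyn and -0.077 to 0.11 for Apoe. The cause of these changes was not tested.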
